A study of Rattus norvegicus with 3 samples.

Results

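The insulin-like growth factor (IGF) system was examined as 9 genes chosen by name: the ligands Igf1 and Igf2, the receptors Igf1r and Igf2r, and the binding proteins Igfbp2, Igfbp3, Igfbp4, Igfbp5 and Igfbp6. They are 9 of the 26115 names given to genes on a rat Agilent array and are carried by 12 probes. Many of these names are probe identifiers or sequence accessions and not gene symbols. Counts over all genes below include them. All 9 were on the array, and 6 of them (Igf2, Igf1r, Igf2r, Igfbp3, Igfbp4 and Igfbp6) were well above background on all 3 arrays, compared with 14388 of 26115 genes (55.1%). Igf1, Igfbp2 and Igfbp5 were not well above background on any array.

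The cells were ROS17/2.8, a clonal line from a rat osteosarcoma with osteoblast-like features, so the data describe 1 tumour-derived clone and not primary bone cells. Confluent cultures in all groups received serum-containing medium with ascorbate phosphate and β-glycerophosphate, additives used to let osteoblast cultures mineralise. The high dose group also received polyphosphate, a linear chain of phosphate residues, at 1 mg/ml for 24 h, the low dose group received 0.01 mg/ml for 24 h, and the control group received none, with no time given for it in the labels. Each group was 1 array of total RNA labelled with Cy3 (3 arrays in all), so no value has a biological replicate, no test between groups was possible, and no p-value is given.

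IGF1 and IGF2 are secreted peptides that act through the IGF1 receptor, a tyrosine kinase that signals through the PI3 kinase and AKT chain and the MAP kinase chain. IGF2 also binds the IGF2 receptor, which has no kinase domain, carries the ligand to lysosomes for degradation and sorts newly made lysosomal enzymes that bear mannose 6-phosphate. The binding proteins hold IGFs outside the cell and can lower or prolong their action, and in bone, where IGFs are stored in the matrix, osteoblasts are a local source of ligands and binding proteins. Fetal bovine serum contains IGFs and binding proteins of its own, which a measurement of rat mRNA does not see.

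Each probe is a 60-base oligonucleotide, and the probes of 5 measured members are shown because their values rest on them, with a probe of Igf1, the ligand that was not well above background. The Igf1r, Igfbp6 and second Igf1 probes are printed whole, and the first 30 bases are printed of the Igf2, Igf2r and Igfbp4 probes, all 5′ to 3′ in lower case.
Igf1 second probe: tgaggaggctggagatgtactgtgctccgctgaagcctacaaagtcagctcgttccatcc
Igf1r: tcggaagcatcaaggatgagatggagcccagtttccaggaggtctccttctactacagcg
Igfbp6: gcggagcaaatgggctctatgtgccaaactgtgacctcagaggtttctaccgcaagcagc
Igf2, first 30 bases: ttctggcaaaatccaaagcttgggttttgt
Igf2r, first 30 bases: ttagcattgtaattctctccccctatttat
Igfbp4, first 30 bases: ttagagacctgcttgttggctataatgtct
The positions given by the files refer to the rat build rn4. The Igf2 probe lies at chr1:202906641-202906700 on the minus strand, the Igf2r probe at chr1:42340766-42340825 on the plus strand and the Igf1r probe at chr1:122989150-122989209 on the plus strand. The Igfbp3 probe lies at chr14:87959244-87959303 on the minus strand, the Igfbp4 probe at chr10:87834213-87834272 on the plus strand and the Igfbp6 probe at chr7:140888422-140888481 on the plus strand. The printed Igf1 probe lies at chr7:24587916-24587975 on the plus strand. An exon or UTR was not assigned to any probe, since an annotation of rn4 was not used here. Of the 12 probes, 11 matched a RefSeq accession that carries the same symbol in the GRCr8 gene table, and the other, of Igfbp5, carries an Ensembl accession.

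The 75th percentile of the processed signal was between 926 and 964 on the 3 arrays, no spot was saturated, and 55.9% to 57.2% of 30367 probes were well above background. The labelled cell type was checked with osteoblast markers, of which 9 of 11 were well above background on each array, Phex and Dmp1 being the exceptions. Markers of other cell types were partly present. On each array 2 of 6 chondrocyte markers (Sox9 and Comp), 2 of 6 adipocyte markers (Fabp4 and Cfd), 4 of 6 macrophage or blood cell markers, 3 of 5 muscle markers and 3 of 5 endothelial markers were well above background. Of 4 osteoclast markers on the array, 1 was well above background on the treated arrays and 2 on the control. Defining genes of these types fell on both sides: Sox9, Cd68, Csf1r, Myog, Pecam1 and Cdh5 were well above background on all arrays, and Acan, Col2a1, Adipoq, Pparg, Ptprc, Myod1, Tek, Kdr and Calcr on none. The summed signal of the osteoblast markers was 126961 in the control, 134635 with low polyphosphate and 122255 with high polyphosphate, most of it Col1a2. The median log2 ratio of the 9 measured osteoblast markers was -0.13 for the high dose against the control, with 7 below 0. Alpl at -0.13 ± 0.06, Col1a1 at -0.23 ± 0.05 and Sparc at -0.17 ± 0.05 were lower by more than 2 spot errors, and Spp1 at 0.26 ± 0.02 was higher. By that rule 23.4% of all genes differed. Against the low dose the median was -0.15, with 5 lower and 1 higher by more than 2 spot errors, beside 20.2% of all genes. The summed chondrocyte signal was 489 in the control, 612 with low polyphosphate and 462 with high polyphosphate. The summed adipocyte signal was 6375, 7016 and 7166 in that order, most of it Cfd. In the 3 groups the sums ran from 396 to 405 for macrophage or blood cell markers. Muscle marker sums ran from 1892 to 1992, most of each Ckm. Sums ran from 584 to 591 for endothelial markers and from 98.4 to 108 for osteoclast markers. The part of these cell types in the IGF values was not tested. In RNA from a whole culture, fewer cells of a type and less RNA per cell cannot be told apart.

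At the high dose Igf2 was lower than in the control and its clearance receptor Igf2r was higher, by 1.58-fold and 1.25-fold. Igfbp4 was 1.16-fold higher. Igf1r, Igfbp3 and Igfbp6 were at 1.04-fold, 1.01-fold and 1.02-fold of the control, each within 2 spot errors of it. At the low dose Igf2 was 1.2-fold lower, and of the other measured members Igfbp3 was furthest from the control, 1.09-fold lower. Both of these low dose differences were also within 2 spot errors. Each difference is a log2 ratio of the signals after division by the array's 75th percentile. Its error, written ±, is the spot error, the standard error expected from the scatter of repeat spots at that brightness, and it covers the measurement on the array alone, not the spread between cultures.

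**Figure D1:**
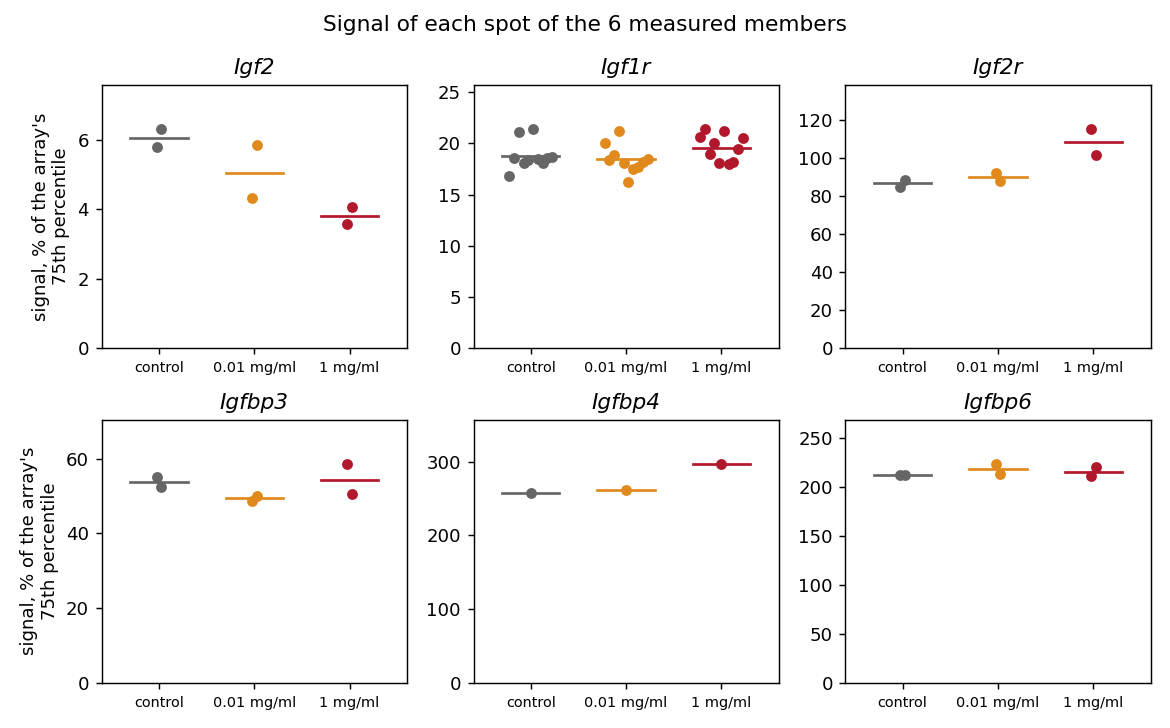
Signal of every spot of the 6 measured members as a percent of its array's 75th percentile (linear axis from 0), for the control, 0.01 mg/ml (low dose) and 1 mg/ml (high dose) arrays, with a line at the geometric mean of the spots. The Igf2 spots at the high dose (3.57% and 4.07%) lie below those of both other arrays, and the Igf2r spots there (115% and 101%) lie above them.

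Igf2, the fetal growth factor ligand, was a dim member whose spots were nevertheless all well above background. Its 2 spots read 53.5 and 58.4 in the control, 41.6 and 56.4 with low polyphosphate and 33.4 and 38.1 with high polyphosphate, in units of processed signal. The high dose spots were below every spot of the other arrays, while the low dose spots overlapped those of the control. The log2 ratio was -0.66 ± 0.25 for the high dose against the control, the 61st lowest of 14495 genes measured. Among the 725 genes of like brightness, 26 (3.59%) were as low or lower, and the log2 ratios of the 725 had an SD of 0.35. The low dose ratio was -0.27 ± 0.24, or 1.202-fold lower, which 135 of 731 genes of like brightness (18.5%) matched or passed. Against the low dose, the high dose was lower by a log2 ratio of -0.40 ± 0.25, and 73 of 724 such genes (10.1%) were as low. The low dose and high dose comparisons share the single control array, and the spots of the low dose array differed from each other by more than those of the other arrays.

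The Igf2 value depends on how background was removed. With normexp, which models background and adds an offset of 50 to signals that were themselves near 50 here, the high dose log2 ratio was -0.20 ± 0.12 and no longer past 1.2-fold. It was below 0 under every alternative tried, between -0.66 and -0.20. The low dose ratio was -0.08 with normexp and -0.11 with spike-in centring, and it was short of 1.2-fold with these, with quantile normalization and with the series table's constants. Between the doses the ratio was -0.12 with normexp.

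Igf1, the growth hormone responsive ligand, has 2 probes, and neither was well above background on any array. The first probe read 10.1 and 5.16 in the control, 13.5 and 20.9 with low polyphosphate and 16.7 and 5.81 with high polyphosphate. The second read 5.35 and 5.24 in the control, 5.81 and 5.67 with low polyphosphate and 6.30 and 6.12 with high polyphosphate. The dimmest spots well above background read 19.7 in the control, 21.0 with low polyphosphate and 22.4 with high polyphosphate, so each Igf1 spot lay below its array's limit. No fold is given for Igf1, and a difference in it was not detectable at this signal.

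The 3 genes with the pair of ratios nearest that of Igf2, among 6889 candidates over 3 arrays, were Slc25a29, Serpinb7 and Fer1l6. Candidates were other genes with a symbol whose probes all had repeat spots, each well above background on all arrays. Slc25a29, a mitochondrial carrier of basic amino acids, was at -0.69 ± 0.18 for the high dose and -0.20 ± 0.15 for the low dose against the control, a distance of 0.068 log2 units from Igf2. Serpinb7, a serine protease inhibitor of the serpin family, was at -0.56 ± 0.08 and -0.27 ± 0.08, at a distance of 0.10. Fer1l6, a ferlin family gene, was at -0.58 ± 0.23 and -0.21 ± 0.22, at a distance of 0.10. The likeness is a description over 3 arrays. The 3 distances are smaller than the spot errors of Igf2 itself, 0.25 and 0.24, so the choice of nearest genes lies within measurement error. Among the protein-coding genes of the GRCr8 gene table, Igf2 lies next to Mrpl23, a mitochondrial ribosomal protein gene. The log2 ratios of Mrpl23 were -0.0045 ± 0.06 for the high dose and -0.08 ± 0.06 for the low dose. H19, the non-coding RNA gene imprinted together with Igf2, was not well above background, with signals of 5.48 in the control, 4.95 with low polyphosphate and 5.33 with high polyphosphate.

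Igf2r, the IGF2 and mannose 6-phosphate receptor, was higher at the high dose. Its 2 spots read 787 and 820 in the control, 885 and 845 with low polyphosphate and 1080 and 950 with high polyphosphate. The high dose spots lay above all others, whereas low dose and control spots were apart in signal but overlapped once each was divided by its array's 75th percentile. The log2 ratio of the high dose against the control was 0.32 ± 0.07, or 1.25-fold, and 17 of 725 genes of like brightness (2.34%) were as high. Against the low dose it was 0.27 ± 0.07, or 1.21-fold, which 20 of 724 such genes (2.76%) reached. The low dose differed from the control by 0.05 ± 0.07, within the spot error. The high dose ratio to the control ran from 0.26 to 0.47 over the alternatives tried. The lowest was that with normexp, 0.26 ± 0.14, which was just short of 1.2-fold and under 2 spot errors. With normexp the ratio between the doses was 0.24, also short of both thresholds.

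Igf1r, the signalling receptor, was measured by 10 repeat spots per array and so has the smallest spot error among the members. Its lowest, median and highest spots were 156, 171 and 198 in the control. They were 157, 176 and 205 at the low dose and 168, 185 and 201 at the high dose. The spots of the 3 arrays overlapped, and in that unscaled signal the high dose spot was the higher in 70 of 100 pairs with a control spot. The log2 ratios were 0.06 ± 0.05 for the high dose and -0.03 ± 0.05 for the low dose against the control, and 0.09 ± 0.05 between the doses. All were below 2 spot errors.

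The log2 ratio of Igf2 minus that of Igf2r, a difference that any rescaling of a whole array leaves as it is, was -0.98 ± 0.26 for the high dose against the control. It was -0.31 ± 0.25 for the low dose against the control and -0.67 ± 0.26 between the doses. The pair was chosen after its values were seen. With normexp the 3 gaps were -0.46 ± 0.19, -0.11 ± 0.19 and -0.35 ± 0.18.

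**Figure D2:**
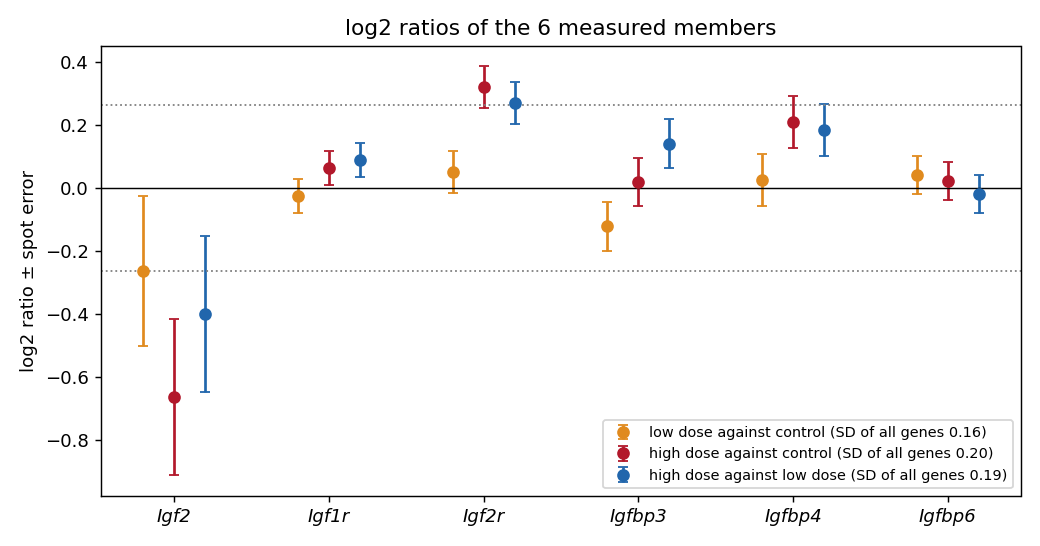
Log2 ratio of each measured member in the 3 comparisons, with bars of 1 spot error and dotted lines at 1.2-fold. Igf2 (-0.66) and Igf2r (0.32) lie beyond the dotted lines on opposite sides for the high dose against the control, and the other 4 members lie between the lines in all 3 comparisons.

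Igfbp4, a binding protein that in many cells lowers IGF action and is cleaved by the protease PAPP-A, had 1 spot per array. The spot read 2386 in the control, 2527 with low polyphosphate and 2787 with high polyphosphate. The high dose was above the control by a log2 ratio of 0.21 ± 0.08, or 1.16-fold, as were 31 of 724 genes of like brightness (4.28%). It was above the low dose by 0.18 ± 0.08, or 1.14-fold, as were 24 of 724 such genes (3.31%). The low dose differed from the control by 0.03 ± 0.08. With normexp the ratios were 0.22 to the control and 0.19 between the doses, and neither was past 2 spot errors, which are wider there for bright genes. With a single spot, the error comes wholly from other probes of that brightness.

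Igfbp3, the main carrier of IGFs in blood, differed by less than 2 spot errors in each comparison. Its 2 spots read 511 and 485 in the control, 469 and 482 with low polyphosphate and 550 and 472 with high polyphosphate. The spots of the high dose array spanned those of the control, and both low dose spots lay below both control spots. The log2 ratios were 0.02 ± 0.08 for the high dose and -0.12 ± 0.08 for the low dose against the control, and 0.14 ± 0.08 between the doses. The low dose ratio turned to 0.04 when the arrays were centred on spike-in RNA. Igfbp1, its neighbour, is a binding protein made chiefly by liver, and its nearest probe lies 4448 bases from that of Igfbp3 in rn4. Its log2 ratio to the control was -0.13 ± 0.18 for high and -0.23 ± 0.18 for low polyphosphate.

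Igfbp6, a binding protein that prefers IGF2, was near the control at both doses. Its 2 spots read 1972 and 1969 in the control, 2161 and 2062 with low polyphosphate and 1984 and 2063 with high polyphosphate. After scaling, the control spots lay within the range of the high dose spots and below both low dose spots. The log2 ratios were 0.02 ± 0.06 for the high dose and 0.04 ± 0.06 for the low dose against the control, and -0.02 ± 0.06 between the doses.

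Igfbp2 and Igfbp5, the latter a binding protein found in bone matrix, have 2 probes each, none well above background on any array. The single spot of the first Igfbp2 probe read 12.6 in the control, 17.7 with low polyphosphate and 7.99 with high polyphosphate. The second Igfbp2 probe read 4.34 and 4.15 in the control, 8.18 and 7.90 with low polyphosphate and 5.03 and 4.72 with high polyphosphate. Both Igfbp2 probes were brightest on the low dose array, at signals below the limit for detection, so no fold is given. The first Igfbp5 probe read 12.5 and 5.11 in the control, 9.61 and 7.96 with low polyphosphate and 7.42 and 5.87 with high polyphosphate. The second read 15.6 and 16.7 in the control, 15.3 and 19.7 with low polyphosphate and 20.7 and 12.99 with high polyphosphate. For the first Igfbp5 probe the spots of both treated arrays lay within the range of the control spots, and for the second the control spots lay within the range of each treated array. The 2 genes are neighbours, with nearest probes 6121 bases apart in rn4, and neither was detected, whereas both genes of the neighbouring pair Igfbp1 and Igfbp3 were.

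**Figure D3:**
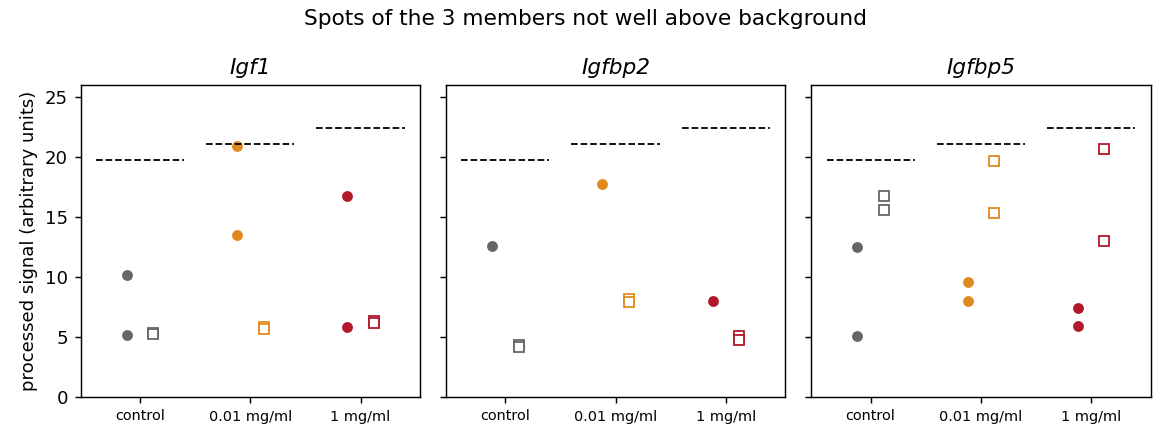
Processed signal (linear axis, arbitrary units) of every spot of Igf1, Igfbp2 and Igfbp5 on the 3 arrays, with filled circles for the first probe, open squares for the second and dashed lines at the dimmest spot well above background on each array. All spots lie below the dashed line of their array (19.7 to 22.4).

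By the rule of at least 1.2-fold, 2 of the 6 measured members differed between the high dose and the control, Igf2r higher and Igf2 lower, beside 15% of 14495 genes. No member reached 2-fold, beside 0.117% of genes. By the rule of more than 2 spot errors, 3 of 6 differed, Igf2r and Igfbp4 higher and Igf2 lower, beside 23.4% of genes. For the low dose against the control, 1 of 6 members, Igf2, was past 1.2-fold, beside 9.07% of 14621 genes. There 0 of 6 reached 2-fold, beside 0.116% of genes, and 0 of 6 differed by more than 2 spot errors, beside 8.82%. Between the doses 2 of 6 were past 1.2-fold, Igf2r higher and Igf2 lower at the high dose, beside 13.1% of 14480 genes. There 0 of 6 reached 2-fold, beside 0.076% of genes, and 2 of 6, Igf2r and Igfbp4, were higher by more than 2 spot errors, beside 20.2%. Whether these counts of 6 members differ from the shares over all genes was not tested.

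The median log2 ratio of the 6 members was 0.04 for the high dose against the control, beside -0.01 over all genes. Of the 6, 5 were above 0 and 1 below. For the low dose the members' median was 0.00, as was that of all genes, with 3 above and 3 below. Between the doses it was 0.11 beside -0.01. The log2 ratios of all genes had an SD of 0.20 for the high dose against the control, 0.16 for the low dose against the control and 0.19 between the doses, against spot errors of 0.14, 0.15 and 0.14 (root mean square). The spike-in RNAs added to each sample gave mean log2 ratios of -0.15 for the high dose and -0.16 for the low dose against the control. Centring on them raised every ratio against the control by those amounts, after which Igfbp3 and Igf1r at the low dose were above 0, at 0.04 and 0.13.

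**Figure D4:**
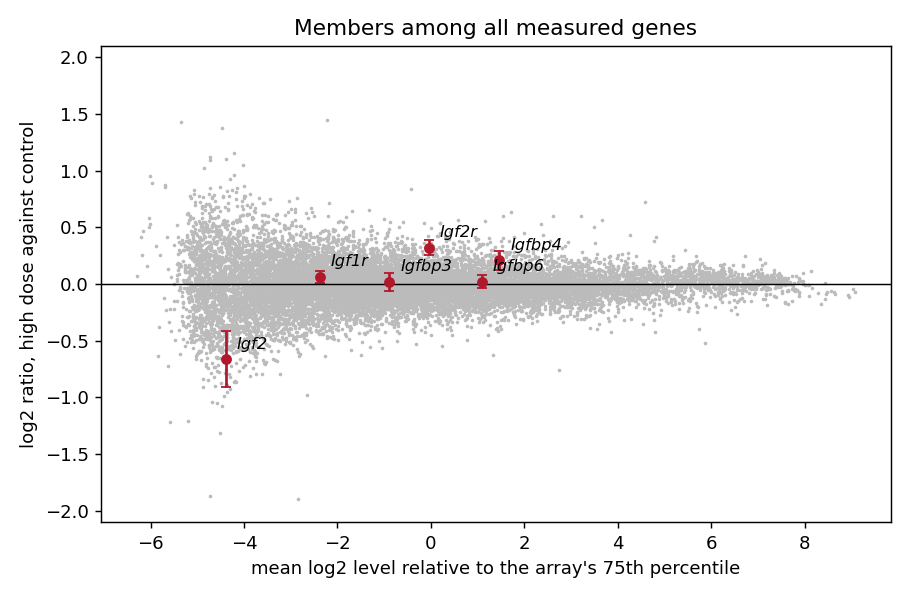
Log2 ratio of the high dose against the control for the 14495 genes measured, plotted against the mean log2 level relative to the 75th percentile, with the 6 members marked and bars of 1 spot error. The scatter widens towards dim genes, where Igf2 lies at -0.66, and Igf2r at 0.32 lies above most genes of its brightness.

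Promoters from RefSeq (build GRCr8) were read as the 250 bases before each start, and all 9 members had an entry, Igf2 with 2 starts. They are shown for Igf2r, Igf2 and Igfbp4, the members more than 2 spot errors apart at the high dose, 5′ to 3′ on the gene's strand. Capitals mark the E-box CACGTG on either strand, a palindrome bound by several helix-loop-helix factors. They also mark the TATA box, spelled TATAAA, which places the start of transcription in some promoters. The GC box, a site type of SP1, is marked where GGGCGG stands on either strand. The motifs were chosen after the values and sequences were seen.
Igf2r, chr1:50526628-50526877, plus strand: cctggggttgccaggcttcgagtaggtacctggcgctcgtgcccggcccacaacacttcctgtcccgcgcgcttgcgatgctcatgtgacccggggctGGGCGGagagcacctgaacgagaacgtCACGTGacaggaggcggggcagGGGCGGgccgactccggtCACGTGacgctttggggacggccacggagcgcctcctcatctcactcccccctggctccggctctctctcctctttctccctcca
Igf2, first start, chr1:207253981-207254230, minus strand: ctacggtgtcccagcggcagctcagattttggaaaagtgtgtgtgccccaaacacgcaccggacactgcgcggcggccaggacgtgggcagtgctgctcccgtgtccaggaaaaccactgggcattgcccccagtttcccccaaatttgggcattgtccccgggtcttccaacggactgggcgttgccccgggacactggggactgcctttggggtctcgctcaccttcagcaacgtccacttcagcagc
Igf2, second start, chr1:207250476-207250725, minus strand: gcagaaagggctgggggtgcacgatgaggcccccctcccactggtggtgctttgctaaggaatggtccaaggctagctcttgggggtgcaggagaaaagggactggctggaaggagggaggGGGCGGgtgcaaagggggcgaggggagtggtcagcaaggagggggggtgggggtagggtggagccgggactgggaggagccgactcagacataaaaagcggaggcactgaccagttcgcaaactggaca
Igfbp4, chr10:84491221-84491470, plus strand: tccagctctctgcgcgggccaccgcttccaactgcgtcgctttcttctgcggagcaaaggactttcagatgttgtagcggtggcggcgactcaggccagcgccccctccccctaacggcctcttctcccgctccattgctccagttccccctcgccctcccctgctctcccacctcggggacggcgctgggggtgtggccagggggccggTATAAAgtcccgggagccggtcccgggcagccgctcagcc
The E-box CACGTG was in the promoters of 3 members, with 2 matches in Igf2r and 1 each in Igf1r and Igfbp2, beside 5.59% of 33469 promoters. Both Igf2r matches had the same 2 bases on each side and so read GTCACGTGAC, a longer palindrome known from promoters of lysosomal genes. This sequence was taken from Igf2r itself, was in no other member and was in 0.203% of promoters. TATAAA was in Igfbp4 alone among the members, beside 12.9% of promoters, and GGGCGG was in 4 members (Igf2r, Igf1r, Igf2 and Igfbp2), beside 30.5%. Matches were counted on both strands, and each GTCACGTGAC holds a CACGTG. GC content was 68% for Igf2r, 62.4% and 63.6% for the Igf2 starts and 68.8% for Igfbp4, beside a median of 51.2% over all promoters. A match is a description of letters, and binding of a factor was not measured.

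Other genes of the pathway were taken as lists, and genes named below beyond the 2 highest and 2 lowest of a list were chosen after their values were seen. Of 9 other IGF binding and release proteins on the array, 6 were measured, and their median log2 ratio under high polyphosphate was 0.02. Stc1, a stanniocalcin that inhibits the PAPP-A proteases, was the highest at 0.35 ± 0.07, with signals of 646 in the control, 759 with low polyphosphate and 833 with high polyphosphate. Its relative Stc2 followed at 0.16 ± 0.08. Both exceeded 2 spot errors, no gene of the list was lower by that margin, and Stc1 alone of the 6 was past 1.2-fold, beside 23.4% and 15% of all genes by these rules. The lowest were Igfbp1, given above, and Igfbp7 at -0.05 ± 0.14, a relative with weak IGF binding. The protease gene Pappa and the carrier subunit gene Igfals were not well above background.

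Of 30 genes of the IGF and insulin signalling chain, 29 were measured under high polyphosphate, and their median log2 ratio was 0.05. There 2 were at least 1.2-fold higher and none lower by as much, beside 15% of all genes, while 5 were higher and 2 lower by more than 2 spot errors, beside 23.4%. Tsc1, part of the complex that restrains mTORC1, was highest at 0.52 ± 0.26, and Pik3cb, a catalytic PI3 kinase subunit, was at 0.49 ± 0.22. Both were dim, near the dimmest spots well above background. Tsc1 read 27.4 in the control, 41.7 with low polyphosphate and 39.8 with high polyphosphate, and Pik3cb read 42.1, 44.8 and 59.7 in that order. Map2k1, a kinase of the MAP kinase chain, was also higher by more than 2 spot errors, at 0.14 ± 0.06. The lowest were Akt1, a kinase downstream of PI3 kinase, at -0.18 ± 0.03, and Rptor, a subunit of mTORC1, at -0.15 ± 0.03. At the low dose the median was 0.00, and Tsc1 alone was past 1.2-fold, at 0.55 ± 0.26, beside 9.07% of all genes. Rps6kb1, a kinase that mTORC1 activates, was also higher by more than 2 spot errors, at 0.15 ± 0.06, beside 8.82% of all genes.

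Of 11 genes on the array that regulate IGF genes or their mRNAs, 8 were measured under high polyphosphate, and their median log2 ratio was 0.04. There 2 were at least 1.2-fold higher and none lower, beside 15% of all genes. They were Jak2, the kinase of the growth hormone receptor, at 0.47 ± 0.08, and Cebpb, a transcription factor, at 0.37 ± 0.05. The lowest were Stat5a, at -0.21 ± 0.03, and Ctcf, the insulator protein of the Igf2 and H19 locus, at -0.03 ± 0.03. Stat5b, the close relative of Stat5a, was at 0.05 ± 0.14, within its spot error. At the low dose the median was 0.02, and no gene was past 1.2-fold, beside 9.07% of all genes. There 2 were lower by more than 2 spot errors, Stat5a at -0.11 ± 0.03 and Cebpd at -0.20 ± 0.09, beside 8.82% of all genes.

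Of 15 genes on the array for FOXO factors and targets that IGF signalling lowers, 11 were measured under high polyphosphate, and their median log2 ratio was 0.14, beside -0.01 over all genes. There 3 were at least 1.2-fold higher and none lower, beside 15% of all genes, while 5 were higher and 1 lower by more than 2 spot errors, beside 23.4%. Cdkn1b, a cyclin-dependent kinase inhibitor, was at 0.33 ± 0.03 and Ccng2, a cyclin of arrested cells, at 0.29 ± 0.07. The third gene past 1.2-fold was Sesn3, a stress-induced sestrin, at 0.28 ± 0.12. Pik3ip1, an inhibitor of PI3 kinase, was at 0.26 ± 0.07, and Sod2, the mitochondrial superoxide dismutase, was at 0.17 ± 0.06. The lowest were Fbxo32, a ubiquitin ligase subunit, at -0.25 ± 0.18, and Foxo4 at -0.14 ± 0.04. At the low dose the list's median was 0.06, and 1 of 11 genes was at least 1.2-fold higher, beside 9.07% of all genes. It was Txnip, at 0.40 ± 0.26 and within 2 spot errors. By the rule of more than 2 spot errors Cdkn1b alone differed, higher at 0.07 ± 0.03, beside 8.82% of all genes.

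**Figure D5:**
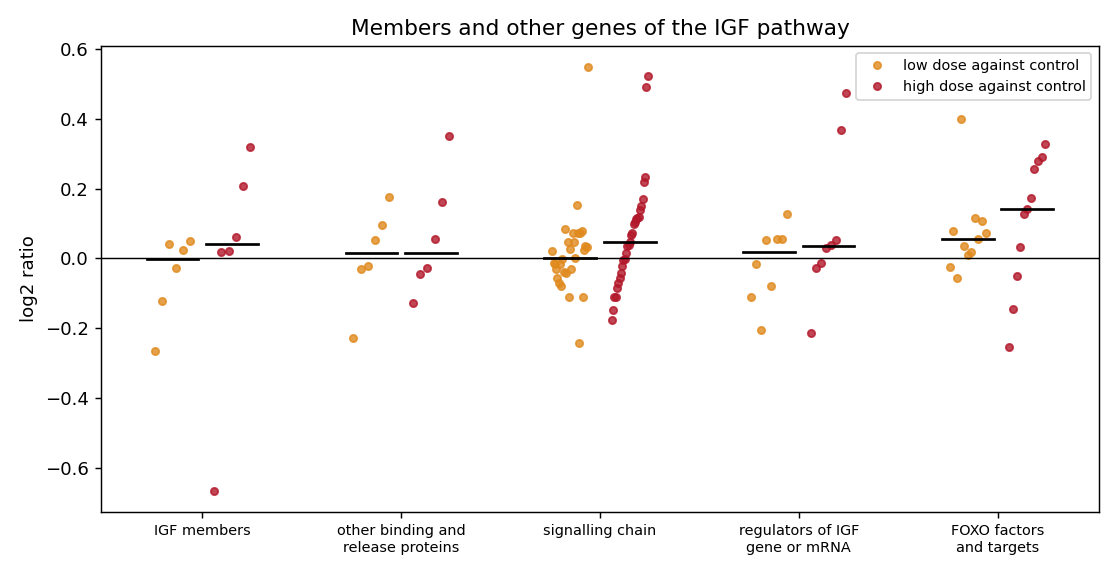
Log2 ratio of each measured gene of the IGF members and the 4 other lists, for both doses against the control, with a line at each median and genes ordered by their high dose ratio. The list medians at the high dose run from 0.02 to 0.14, and the members span -0.66 to 0.32.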

How the data were processed

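Total RNA of ROS17/2.8 cells was measured on 3 one-colour arrays, 1 per group, all on the same slide, so position and group cannot be told apart. Spot intensity was deposited by the authors as scanner output, extracted with Agilent Feature Extraction 10.7.3.1 per the file headers, background-subtracted and not normalized between arrays. The series table deposited by the authors holds a ratio, since a check against the scanner files found each column to be the processed signal over a constant per array (823, 849 and 823 for high, low and control), on a linear scale and uncentred, with column medians of 0.0734, 0.0731 and 0.0737. The sources used here do not say how it was made.

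Processed signals were put on the log2 scale and each array was centred on its 75th percentile over 58717 non-control spots. Spots flagged as outliers were left out, the remaining repeat spots were averaged, and a probe was taken as well above background if 50% or more of its spots were. Ratios of a gene average those of its probes that passed on both arrays. Spot errors came from repeat spots pooled in 20 bins of brightness. The number of arrays limits the precision: with 1 array per group there is no replicate check. Thresholds were 1.2-fold, 2-fold and 2 spot errors. The named genes were all 9 members, the 2 highest and 2 lowest of each other list at the high dose, and the 3 genes nearest to Igf2; other named genes (neighbours, markers and further list genes) were chosen after their values were seen. Members and lists were chosen with earlier results of these data known. The alternatives were 8: the series table's constants, spike-in centring, quantile normalization, normexp background correction, outlier spots kept, the brightest probe, no filter on dim probes, and a stricter filter. The calculation was tested on simulated spots, drawn with the pooled spot scatter that it also estimates and without differences between cultures. Such a test can check the arithmetic alone. Protein sequences were not used here. Values of some genes of the signalling chain are not reported here. R 4.3.3 with limma 3.58.1 and Python 3.11.15 with numpy 2.4.6, pandas 2.3.3, scipy 1.17.1 and matplotlib 3.10.9 were used.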

Additional observations from a re-analysis of the deposited data

How the results depend on the processing

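No paired analysis was possible because each group is 1 array and the labels carry no replicate numbers, and for the same reason no replicate could be left out. With 1 array per group, a difference between cultures, between slide positions or between doses cannot be told apart. Of the log2 ratios of single members under the 8 alternatives, 132 moved by less than their spot error and 12 by more, and of the counts 59 were within 1.5 times the main count and 13 were not. Keeping outlier spots, taking the brightest probe, dropping the filter and tightening it left every such ratio as it was. The 6 measured members have 1 probe each and no flagged spot, so these settings could not move them. The 2-fold counts were 0 in every setting. Both tallies include such unmoved values. With normexp, 0 of 6 members were past 1.2-fold in each comparison, beside 5.13% of all genes for the high dose against the control, 1.85% for the low dose and 3.64% between the doses. Past 2 spot errors were 0 for the high dose against the control, beside 5.29% of genes, and 0 between the doses, beside 3.87%. There the spot SD of the bins was 0.10 to 0.16, against 0.051 to 0.26 in the main setting. Without a filter on dim probes, which admits the 3 undetected members, 4 of 9 members were past 1.2-fold between the doses, beside 22.7% of genes, and 3 of 9 for the low dose against the control, beside 22.0%, where 2 of 9 were past 2 spot errors, beside 13.6%. For the low dose, 0 of 6 members were past 1.2-fold with quantile normalization and 0 with the series table's constants, where Igf2 was at -0.24 and -0.25, and 0 with spike-in centring, whose shift of 0.16 put it at -0.11. Spike-in centring put 6 of 6 members past 2 spot errors for the high dose, beside 42.5% of all genes, and 4 of 6 for the low dose, beside 44.7%, and gave -0.51 for Igf2 at the high dose. No ratio past a threshold turned its sign. Genes with signals near the dimmest spots well above background, Igf2 among the members, have the widest spot errors, and Igf1, Igfbp2 and Igfbp5 could not be compared.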
